A study of Mus musculus with 6 samples.

Results

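The collagen chains are the genes whose symbol is Col, a number, the letter a and a number, and they were found by that pattern among the annotated probes of the arrays. The pattern took 50 of 26423 probes, which stand for 44 of 19084 genes with a symbol. By the structure of the protein the 44 genes fall into 11 fibrillar chains, 6 chains of the basement membrane collagen IV, 9 fibril-associated chains with interrupted helices (FACIT) and 18 other chains. Of these genes 37 were bright enough to be tested, namely 10 fibrillar, 6 basement membrane, 6 FACIT and 15 other chains.

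Collagens are secreted or membrane proteins whose α chains wind into a helix, either with copies of themselves or with other chains of the same type. Fibrillar collagens form the tension-bearing fibrils of connective tissue, FACIT collagens coat those fibrils, and collagen IV forms the sheet-like network of basement membranes. Fibroblasts and other mesenchymal cells are the usual source of fibrillar collagen. In the testis a basement membrane surrounds the seminiferous tubules, with Sertoli and germ cells inside it and peritubular myoid cells outside it.

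Expression was measured on 6 single-colour (Cy5) arrays of cells from ICR mice, in 3 groups of 2 arrays, and the animals of each group were pooled. PGC colony arrays held RNA of colonies picked after gonadal cells of 67 E11.5 embryos, whose sex the labels do not give, had been cultured for 7 days in 5% O2 on laminin (200 ng/cm2) with EGF (10 ng/ml) in MCDB-201 medium. GSC colony arrays held RNA of colonies grown and picked in the same way from testicular cells of 80 mice, newborn to P2. CD49f+ sorted arrays held RNA of cells from 100 mice of that same age that were pulled out with magnetic beads against CD49f, an integrin α subunit (gene Itga6), and were not cultured. Their label reads physiological hypoxia, with no oxygen value. PGC stands for primordial germ cells, and GSC is written out in the labels as Glandular Stem Cells. No genetic change is named for any group. In any comparison of colonies with sorted cells, culture (with its laminin, EGF and oxygen) changes together with sorting and colony picking. In PGC colonies against sorted cells, donor stage and source tissue change as well. Between PGC and GSC colonies donor stage and source tissue change together, and sex may differ too. In each comparison these factors cannot be told apart. Whether both arrays of a group hold RNA of separate preparations is not stated. The spread between arrays of a group, against which the p-values set each difference, may therefore be only technical.

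Levels below are log2 intensity after background correction and normalization between arrays, differences are on that log2 scale with their SE, and each probe's level can be read only against the same probe on other arrays. A change was called where the adjusted p (Benjamini-Hochberg) of a limma fit over 15459 genes was under 0.05, with n = 2 arrays in every group. Of all genes tested, 47.1% were called between GSC colonies and sorted cells, 15.1% between PGC and GSC colonies, and 46% between PGC colonies and sorted cells. Median deposited intensity was 541 to 587 on PGC colony arrays, 558 to 607 on GSC colony arrays and 393 to 407 on sorted arrays, and arrays of 1 group correlated at 0.976 to 0.990. Among 10 germ cell markers, Dppa3, Tfap2c, Sycp3 and Stra8 lay under the filter level of 7.82 on all 6 arrays, PGC colony arrays included. The other 6 were tested, of which 5 were higher in GSC colonies than in sorted cells and 5 were lower in PGC than in GSC colonies, while 2 were lower in PGC colonies than in sorted cells. Ddx4, a germ cell RNA helicase, read 9.96 and 9.72 in PGC colonies, 10.24 and 10.27 in GSC colonies, and 10.10 and 9.89 in sorted cells, and passed the test in none of the comparisons. Dazl, a germ cell RNA-binding protein, read 7.42 and 7.51 in PGC colonies, 10.09 and 10.12 in GSC colonies, and 8.39 and 8.91 in sorted cells. Pou5f1, a pluripotency and germ cell gene, stood at 8.26 and 8.16 in PGC colonies, 9.34 and 9.35 in GSC colonies, and 8.47 and 8.39 in sorted cells. The labels PGC and GSC are used here for the samples and not as cell types found in the data.

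Markers of other cell types differed widely between the groups. For scale, 22.5% of all genes tested were called higher and 24.5% lower in GSC colonies than in sorted cells. In PGC colonies against sorted cells these shares were 22.8% and 23.2%. All 10 measured fibroblast and mesenchyme markers, a list with no collagen in it, were higher in both kinds of colony than in sorted cells. Their summed level was 242000 to 262000 intensity units in PGC colonies, 497000 to 501000 in GSC colonies and 21600 to 24100 in sorted cells. Each such sum follows the brightest probes of its list and does not stand for all members. Here these were Dcn (17.06 and 16.86 in PGC colonies, 17.91 and 17.91 in GSC colonies) and Postn (15.04 and 14.73, against 17.06 and 17.02). All 8 Sertoli markers were lower in both kinds of colony, with sums of 20600 to 22700 in PGC colonies, 22500 to 23100 in GSC colonies and 258000 to 275000 in sorted cells. Of the peritubular myoid and smooth muscle list, 4 of 4 tested genes were higher in GSC colonies than in sorted cells. In PGC colonies 3 of these 4 were higher than in sorted cells, and Myh11, a smooth muscle myosin, was lower (-0.74 ± 0.13). That list summed to 37000 to 38800 in PGC colonies, 75600 to 76400 in GSC colonies and 5310 to 5400 in sorted cells. Its brightest probe was that of Acta2, at 15.08 and 15.15 in PGC colonies and 15.76 and 15.81 in GSC colonies. The fibroblast and peritubular sums were thus higher in colonies, where most collagen chains were also higher, and the Sertoli sum was lower. Between PGC and GSC colonies the fibroblast and peritubular sums were lower in PGC colonies. The median log2 difference over tested genes was -0.58 for the fibroblast list, -2.27 for the peritubular list and 0.08 for the collagens. Of the 10 fibroblast markers 6 were lower and 3 higher in PGC than in GSC colonies, beside 7.98% lower and 7.08% higher of all genes tested. The part of these cell types in the collagen results was not tested. In such bulk RNA, fewer cells of a type and less RNA per cell cannot be told apart.

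Most collagen chains were higher in GSC colonies than in sorted cells. Of the 37 tested, 24 were higher, 2 were lower and 11 did not pass the test, so that 64.9% were called higher and 5.41% lower, against 22.5% and 24.5% of all genes tested. The median difference over the 37 was 1.35, beside -0.01 over all genes, and 20 of the 24 differed by at least 2-fold. By class, 8 of 10 fibrillar chains, 5 of 6 basement membrane chains, 3 of 6 FACIT chains and 8 of 15 other chains were higher. Without normalization between arrays the median of all genes was 0.465 higher in GSC colonies, and the split of all calls became 8179 higher and 1732 lower, against 3486 higher and 3793 lower with it. The plot of differences of both kinds of colony from sorted cells gives each gene with its SE.

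**Figure D1:**
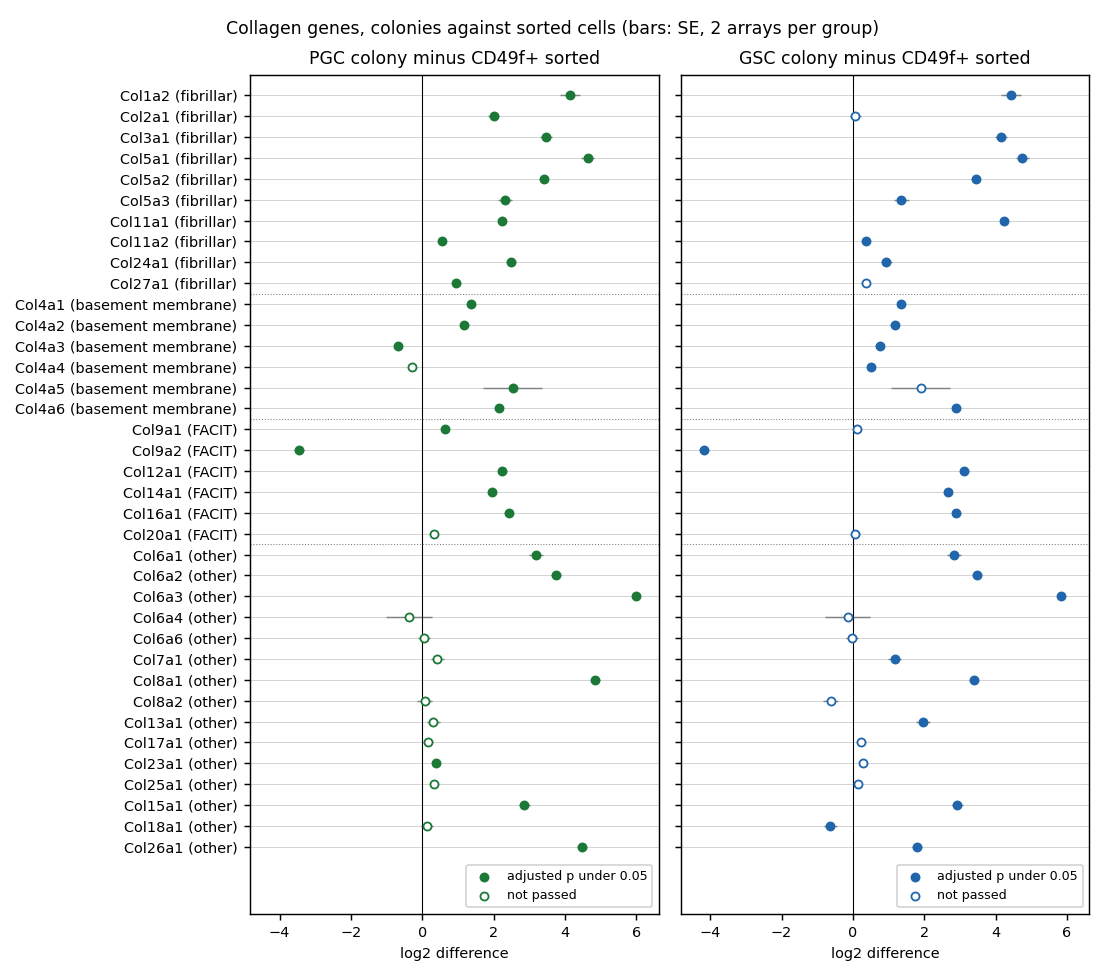
Log2 difference of PGC colony minus CD49f+ sorted arrays (left panel, x axis) and of GSC colony minus CD49f+ sorted arrays (right panel, x axis) for the 37 tested collagen genes (y axis, by class), with bars for the SE of a fit with 2 arrays per group and filled points for an adjusted p under 0.05. Most points lie right of 0, Col6a3 is at 6.00 in PGC colonies and 5.83 in GSC colonies, and Col9a2 is at -3.47 and -4.17; genes under the filter level in 1 group are drawn at their fitted difference, for which the text gives a bound.

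Among the fibrillar chains, Col1a2, which pairs with Col1a1 in collagen I of skin, bone and tendon, had levels of 14.48 and 15.35 in GSC colonies, against 10.63 and 10.38 in sorted cells. The groups were far apart, a difference of 4.42 ± 0.28 (21.4-fold, adjusted p = 5.1e-05). Col1a1 itself was not tested, since its only probe lay under the filter level on all 6 arrays (7.49 and 7.45 in PGC colonies, 7.01 and 6.85 in GSC colonies, 7.68 and 7.80 in sorted cells). That probe therefore gives no measure of the partner chain. The promoter window of Col1a2 is shown here because this gene rose while Col9a2, shown further on, fell by a similar amount. It spans chr6:4505368-4505667 (plus strand, GRCm38.p6, RefSeq), and capitals mark CCAAT or GGGCGG boxes on either strand, of which it holds 2 each.
Col1a2: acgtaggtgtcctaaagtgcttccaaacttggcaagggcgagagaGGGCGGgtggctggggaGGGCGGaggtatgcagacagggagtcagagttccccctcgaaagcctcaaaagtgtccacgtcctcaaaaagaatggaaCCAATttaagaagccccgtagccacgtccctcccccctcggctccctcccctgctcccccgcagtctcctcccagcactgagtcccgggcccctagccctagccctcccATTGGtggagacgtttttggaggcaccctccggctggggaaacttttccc

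Col3a1, the single chain of collagen III, which accompanies collagen I in soft tissue, had levels of 13.40 and 13.26 in GSC colonies, against 9.17 and 9.18 in sorted cells (4.15 ± 0.16, 17.8-fold, adjusted p = 6.9e-06). The largest fibrillar difference was that of Col5a1, a chain of collagen V, which helps to start fibrils and sets their diameter. Col5a1 levels were 13.19 and 13.31 in GSC colonies, against 8.42 and 8.58 in sorted cells, a difference of 4.75 ± 0.18 (27.0-fold, adjusted p = 6.3e-06). Its partner Col5a2 had 13.00 and 13.02 in GSC colonies, against 9.69 and 9.44 in sorted cells (3.44 ± 0.12, adjusted p = 5.5e-06). Col11a1, a minor fibrillar chain best known from cartilage, had 12.97 and 13.04 in GSC colonies, against 8.81 and 8.71 in sorted cells (4.24 ± 0.10, 19.0-fold, adjusted p = 2.3e-06). For all these genes both colony arrays lay above both sorted arrays by more than 3 log2 units.

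The remaining fibrillar chains differed less. Col5a3, another collagen V chain, was higher in GSC colonies by 1.36 ± 0.20, Col24a1 by 0.94 ± 0.15 and Col11a2 by 0.37 ± 0.11. The Col11a2 call was lost when any single GSC colony or sorted array was left out, with an adjusted p of up to 0.15. Col2a1, the chain of cartilage collagen II, stood at 8.47 and 8.19 in GSC colonies, against 8.34 and 8.17 in sorted cells, and these overlap (0.07 ± 0.15, adjusted p = 0.72). Col27a1 lay under the filter level in both groups.

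Collagen IV chains other than Col4a5, whose probes disagreed, were higher in GSC colonies than in sorted cells. Col4a1 and Col4a2 encode the chains of the collagen IV found in nearly all basement membranes. Col4a1 had levels of 16.74 and 16.81 in GSC colonies, against 15.36 and 15.49 in sorted cells (1.35 ± 0.11, 2.56-fold, adjusted p = 0.00015). Col4a2 had 17.85 and 17.68 in GSC colonies, against 16.65 and 16.54 in sorted cells (1.17 ± 0.12, 2.25-fold, adjusted p = 0.00042). Both genes moved by nearly the same amount in every comparison, and neither passed the test between PGC and GSC colonies, at 0.02 ± 0.11 for Col4a1 and 0.01 ± 0.12 for Col4a2.

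Col4a1 and Col4a2 lie head to head on chromosome 8, and their promoter windows are printed here to show the stretch they share. Each window runs from 250 bases before to 50 bases after the RefSeq start (GRCm38.p6), Col4a1 at chr8:11312777-11313076 on the minus strand and Col4a2 at chr8:11312555-11312854 on the plus strand. Capitals mark the 78 bases that lie in both windows, at chr8:11312777-11312854, read from opposite strands.
Col4a1: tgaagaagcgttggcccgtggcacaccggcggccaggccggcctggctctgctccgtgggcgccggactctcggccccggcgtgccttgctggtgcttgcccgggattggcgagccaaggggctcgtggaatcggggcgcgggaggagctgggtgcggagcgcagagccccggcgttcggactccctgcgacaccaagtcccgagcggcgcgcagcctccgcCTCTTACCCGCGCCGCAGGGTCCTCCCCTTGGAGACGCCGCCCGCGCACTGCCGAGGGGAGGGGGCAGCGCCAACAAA
Col4a2: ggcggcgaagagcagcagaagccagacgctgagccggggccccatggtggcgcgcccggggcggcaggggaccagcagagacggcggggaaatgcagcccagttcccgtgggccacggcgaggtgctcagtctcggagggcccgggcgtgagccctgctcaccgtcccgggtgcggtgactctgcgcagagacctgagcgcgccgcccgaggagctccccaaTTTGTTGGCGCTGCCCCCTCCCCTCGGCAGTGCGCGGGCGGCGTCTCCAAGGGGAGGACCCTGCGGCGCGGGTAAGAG
Col4a1 held 1 CCAAT box and 1 GGGCGG box on either strand, and Col4a2 held 1 and 3, with no TATAAA in either window. The neighbouring pairs Col4a3 with Col4a4 and Col4a5 with Col4a6 are described next.

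Col4a3 and Col4a4, which with Col4a5 form the collagen IV of the kidney glomerulus and some other specialised membranes, were modestly higher in GSC colonies. Col4a3 levels were 8.85 and 9.00 in GSC colonies, against 8.18 and 8.16 in sorted cells (0.75 ± 0.12, adjusted p = 0.0025). Col4a4 levels were 11.18 and 11.04 in GSC colonies, against 10.64 and 10.54 in sorted cells (0.52 ± 0.11, adjusted p = 0.0099). The Col4a4 call was lost without GSC colony replicate 1 or sorted replicate 2. Col4a6, which joins Col4a5 in smooth muscle and epithelial basement membranes, differed more, with 11.51 and 11.47 in GSC colonies, against 8.68 and 8.53 in sorted cells (2.89 ± 0.12, 7.41-fold, adjusted p = 1.0e-05).

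Col4a5 depended on the probe. The probe with the higher mean, which stands for the gene, read 10.07 and 12.91 on the GSC colony arrays, against 9.71 and 9.47 on the sorted arrays. With the GSC colony arrays so far apart, its difference of 1.90 ± 0.82 did not pass the test (adjusted p = 0.11). A second Col4a5 probe read 12.48 and 12.40 in GSC colonies, against 9.25 and 9.15 in sorted cells, a difference of 3.24 ± 0.12 (adjusted p = 6.3e-06 in the fit over all probes). The same GSC colony array was not set apart on the second probe or on the probes of Col4a6. The second probe of Col4a6 differed by 1.78 ± 0.14 between the same groups, and of 3 Col4a4 probes 1 lay under the filter level on all arrays. The plot of all collagen IV probes shows each array's reading.

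**Figure D2:**
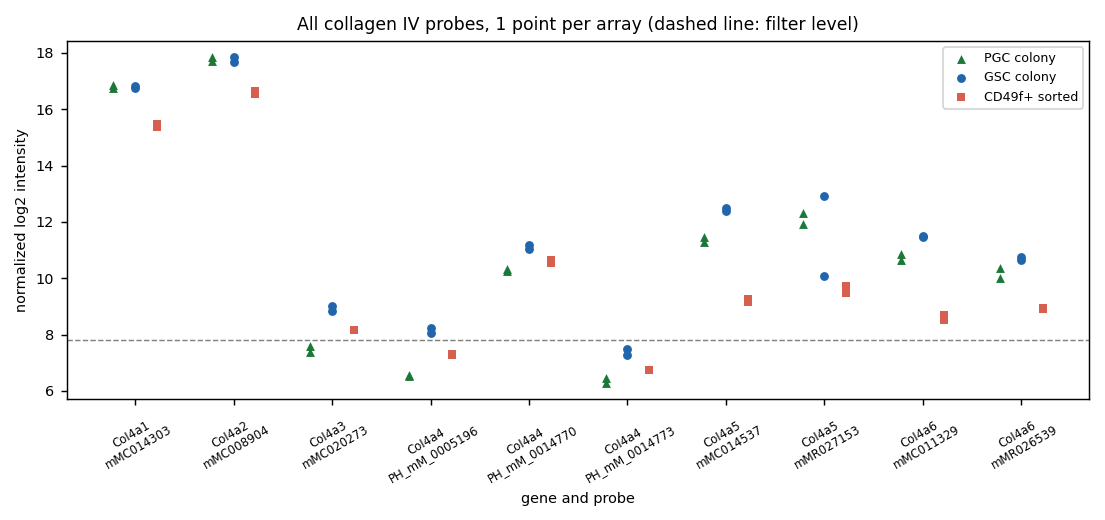
Normalized log2 intensity (y axis) of all 10 collagen IV probes (x axis), with 1 point per array for PGC colony, GSC colony and CD49f+ sorted and a dashed line at the filter level of 7.82. For the gene-level probe of Col4a5 the 2 GSC colony points lie at 10.07 and 12.91, while the second probe of that gene has them at 12.48 and 12.40.

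The FACIT class split into genes that were higher and 1 gene that was much lower. Col12a1, Col14a1 and Col16a1, whose proteins bind the surface of collagen fibrils, were higher in GSC colonies by 3.12 ± 0.13, 2.66 ± 0.11 and 2.90 ± 0.12 (adjusted p of 9.4e-06 or below for Col14a1 and Col16a1, and 9.7e-06 for Col12a1). Col12a1 levels were 11.07 and 11.08 in GSC colonies, against 7.93 and 7.97 in sorted cells. Col14a1 had 13.30 and 13.38 in GSC colonies, against 10.66 and 10.70 in sorted cells. Col16a1 had 12.54 and 12.42 in GSC colonies, against 9.49 and 9.67 in sorted cells.

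Col9a2, a chain of collagen IX, which decorates collagen II fibrils in cartilage, went the other way. Its levels were 9.00 and 9.22 in PGC colonies, 8.55 and 8.28 in GSC colonies, and 12.60 and 12.56 in sorted cells. Both kinds of colony thus lay more than 3 log2 units below sorted cells, with a difference of -4.17 ± 0.14 for GSC colonies (17.9-fold lower, adjusted p = 4.4e-06) and -3.47 ± 0.14 for PGC colonies (11.1-fold lower, adjusted p = 1.0e-05). Among collagen genes, no other fell by 2-fold or more in either of these comparisons. All 8 Sertoli markers and all 7 leukocyte markers fell in the same comparisons, with leukocyte sums of 5750 to 5830 in PGC colonies, 2230 to 2550 in GSC colonies and 79600 to 81600 in sorted cells. Endothelial markers were lower in 6 of 6 (PGC colonies) and 5 of 6 (GSC colonies, where Emcn was higher by 1.26). Epithelial and mesothelial markers were lower in 6 of 7 (PGC colonies) and 4 of 7 (GSC colonies, with 2 higher). Of all genes tested, 23.2% were called lower in PGC colonies and 24.5% in GSC colonies. Of the epithelial list, only Krt8, a keratin, came close to the Col9a2 difference, at -3.35 in PGC colonies and -4.17 in GSC colonies. Its GSC colony arrays lay apart, at 8.08 and 9.72. The median of that list was -0.75 in PGC colonies and -0.62 in GSC colonies. The keratin Krt18 differed by -0.41 in PGC colonies and -0.62 in GSC colonies, and Krt19 passed in neither. Msln (3.34) and Upk3b (0.87) were higher in GSC colonies. Whether the Col9a2 signal belongs to any of these cells was not tested. Of the other collagen IX chains, Col9a1 did not pass (0.11 ± 0.10), and Col9a3 was under the filter level on all arrays, as were Col19a1 and Col22a1. The Col9a2 window at chr4:121039316-121039615 (plus strand, GRCm38.p6, RefSeq) is printed for comparison with that of Col1a2, and capitals again mark boxes on either strand.
Col9a2: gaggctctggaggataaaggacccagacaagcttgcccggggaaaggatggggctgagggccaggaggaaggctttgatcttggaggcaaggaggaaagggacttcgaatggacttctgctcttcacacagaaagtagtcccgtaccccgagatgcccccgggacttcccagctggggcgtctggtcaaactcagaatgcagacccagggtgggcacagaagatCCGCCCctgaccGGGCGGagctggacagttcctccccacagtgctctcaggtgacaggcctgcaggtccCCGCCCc
It held 3 GGGCGG boxes and 0 CCAAT boxes.

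Over the 38 RefSeq promoter windows that matched 35 of the 44 collagen genes, CCAAT was found in 34.2%, against 37.4% of all 32851 windows of the same length. GGGCGG was found in 60.5%, against 35.7% of all windows, and TATAAA in 13.2%, against 13.6%. Both strands were searched. These counts describe the letters in these windows, and matches were not tested as binding sites.

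Among the other chains, those of collagen VI, which forms beaded filaments around cells, stood out. Col6a3 had levels of 16.01 and 15.92 in GSC colonies, against 10.05 and 10.22 in sorted cells, a difference of 5.83 ± 0.11 (56.8-fold, adjusted p = 1.9e-06), the largest of any collagen gene in this comparison. Col6a1 had 16.49 and 16.74 in GSC colonies, against 13.88 and 13.67 in sorted cells (2.84 ± 0.19, adjusted p = 5.8e-05). Col6a2 had 13.82 and 13.63 in GSC colonies, against 10.22 and 10.25 in sorted cells (3.49 ± 0.14, adjusted p = 8.6e-06). Col6a1, Col6a2 and Col6a3 assemble into 1 molecule, and all rose. Col6a4 and Col6a6 did not pass the test, with Col6a4 reading between 6.94 and 8.68 over the 6 arrays with no order by group, and Col6a5 was under the filter level everywhere.

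Col8a1, a short chain of the network in vessel walls and the cornea, was measured in GSC colonies (10.48 and 10.48) but lay under the filter level in sorted cells (7.07 and 7.11). In GSC colonies it was at least 6.32-fold higher (adjusted p = 6.8e-06). Col13a1, a transmembrane collagen, was likewise at least 2.75-fold higher, at 9.34 and 9.22 in GSC colonies, against 7.53 and 7.09 in sorted cells (adjusted p = 0.0003). Col15a1, a multiplexin at the outer face of basement membranes, had 13.43 and 13.43 in GSC colonies, against 10.50 and 10.51 in sorted cells (2.93 ± 0.15, adjusted p = 2.2e-05). Col26a1, first described in testis and ovary, was higher by 1.80 ± 0.14 (adjusted p = 0.00011), and Col7a1, the anchoring fibril chain, by 1.17 ± 0.18.

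Col18a1, the multiplexin from which endostatin is cut, was the second gene called lower. Its levels were 14.95 and 14.82 in GSC colonies, against 15.39 and 15.64 in sorted cells (-0.63 ± 0.17, adjusted p = 0.021). The sign depended on the scaling, since without normalization between arrays the difference was 0.12, and the call was also lost with median centring and without GSC colony replicate 2 or sorted replicate 2. Transmembrane Col17a1, Col23a1 and Col25a1 and short-chain Col8a2 did not pass the test, and Col10a1 and Col28a1 were not tested.

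**Figure D3:**
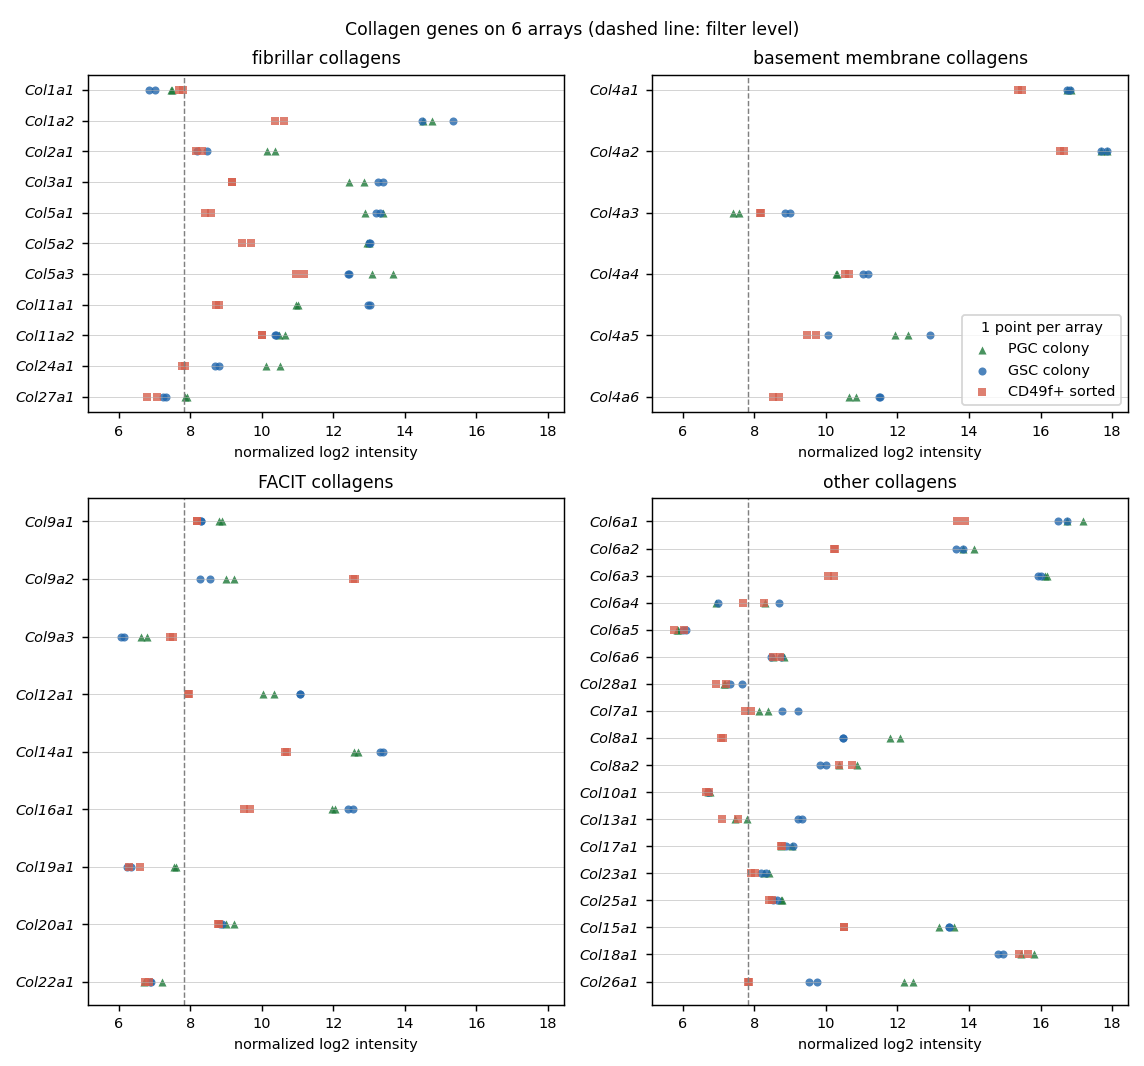
Normalized log2 intensity (x axis) of all 44 collagen genes (y axis, 1 panel per class), with 1 point per array for the 2 PGC colony, 2 GSC colony and 2 CD49f+ sorted arrays and a dashed line at the filter level of 7.82. For Col1a2, Col3a1, Col5a1, Col5a2, Col6a3 and Col15a1 the 4 colony points lie right of the sorted points, for Col9a2 they lie left of them, and Col1a1 lies left of the dashed line on all 6 arrays.

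PGC and GSC colonies were grown alike, from embryonic gonads of unstated sex and from postnatal testes, and their collagen levels differed in both directions. Of the 37 genes, 9 were higher in PGC colonies, 10 were lower and 18 did not pass, so that 51.4% were called, against 15.1% of all genes tested. The calls were 24.3% higher and 27% lower, beside 7.08% and 7.98% of all genes, and the median difference was 0.08, beside 0.01. Fibrillar chains were 4 higher and 2 lower, basement membrane chains 0 higher and 3 lower, FACIT chains 2 higher and 3 lower, and other chains 3 higher and 2 lower. The peritubular list fell in all 4 tested genes and the fibroblast list in 6 of 10, with 3 of 10 higher, while all 5 tested skeletal muscle markers rose. Of leukocyte markers 5 of 7 were higher and 0 lower in PGC colonies, and of germ cell markers 5 of 6 tested were lower. The counts in this comparison moved with single arrays: without PGC colony replicate 2, 5 collagens and 671 of all genes were higher, and without GSC colony replicate 1, 662 of all genes were higher and 822 lower, against 1095 and 1234 with all arrays. Sorted arrays enter this comparison through the normalization and the shared spread. The size of the Col18a1 difference, for example, was 0.76 without sorted replicate 1 and 0.77 without sorted replicate 2, against 0.76 with all arrays. The calls depended more on the sorted arrays. With only PGC and GSC colony arrays in the fit, 686 of all genes were higher and 915 lower, against 1095 and 1234. That fit also lost the calls of Col5a3, Col9a1, Col9a2, Col3a1, Col7a1 and Col16a1.

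Higher in PGC colonies was Col26a1, with 12.18 and 12.43 in PGC colonies, against 9.75 and 9.52 in GSC colonies, a difference of 2.67 ± 0.14 (6.35-fold, adjusted p = 0.00013), the largest among collagens here. Col2a1 had 10.14 and 10.37 in PGC colonies, against 8.47 and 8.19 in GSC colonies (1.93 ± 0.15, 3.80-fold, adjusted p = 0.0006). The fibrillar chain Col24a1 had 10.11 and 10.50 in PGC colonies, against 8.81 and 8.69 in GSC colonies (1.55 ± 0.15, adjusted p = 0.0014), and its second probe differed by 1.47 ± 0.14. Col8a1 had 12.08 and 11.79 in PGC colonies, against 10.48 and 10.48 in GSC colonies (1.46 ± 0.13, adjusted p = 0.00096). For each of these genes both PGC colony arrays lay above both GSC colony arrays, and the call held in each of the 17 alternative settings in which the gene was tested.

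Beside the rise of Col2a1, the cartilage list without collagens had 2 of 5 tested genes higher in PGC colonies, Acan and Hapln1. That is 40%, beside 7.08% of all genes tested. Comp and Matn1 lay under the filter level on all arrays. The cartilage list summed to 5740 to 6400 in PGC colonies, against 5260 to 5330 in GSC colonies. Its brightest probe, that of Sox5, did not pass the test (-0.14 ± 0.16). The skeletal muscle list summed to 12100 to 13200 in PGC colonies, against 1560 to 1710 in GSC colonies. The part of these cells in the Col2a1 and Col26a1 levels was not tested.

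Col5a3, at 13.68 and 13.09 in PGC colonies, against 12.44 and 12.42 in GSC colonies, was also higher (0.95 ± 0.20, adjusted p = 0.028), as was Col9a2 (0.70 ± 0.14). Col9a1 had 8.81 and 8.89 in PGC colonies, against 8.29 and 8.31 in GSC colonies (0.54 ± 0.10). Col18a1 had 15.46 and 15.83 in PGC colonies, against 14.95 and 14.82 in GSC colonies (0.76 ± 0.17). Col27a1 was at least 1.04-fold higher, a bound near no change. The calls of these 5 genes were each lost under 4 to 6 of the 17 alternative settings.

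Lower in PGC colonies, Col11a1 had 10.97 and 11.00 in PGC colonies, against 12.97 and 13.04 in GSC colonies, a difference of -2.02 ± 0.10 (4.05-fold lower, adjusted p = 0.00013). It was still higher in PGC colonies than in sorted cells, by 2.23 ± 0.10. Col4a3 was under the filter level in PGC colonies (7.58 and 7.40), which made it at least 2.15-fold lower than in GSC colonies (adjusted p = 0.00071). Col4a4, at 10.32 and 10.27 in PGC colonies, fell by 0.82 on the log2 scale against GSC colonies (SE 0.11, adjusted p = 0.0054). Col4a6 had 10.64 and 10.85 in PGC colonies, against 11.51 and 11.47 in GSC colonies (-0.74 ± 0.12, adjusted p = 0.011), though its second probe did not pass (-0.51 ± 0.14, adjusted p = 0.062).

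Col4a5 again split by probe. The gene-level probe read 11.94 and 12.30 in PGC colonies, inside the range of the 2 GSC colony arrays (0.63 ± 0.82, adjusted p = 0.66), and the second probe read 11.27 and 11.46 in PGC colonies, against 12.48 and 12.40 in GSC colonies (-1.07 ± 0.12, adjusted p = 0.0023). Without GSC colony replicate 1, the gene-level difference was -0.78. Collagen IV chains other than Col4a1 and Col4a2 had lower values in PGC colonies on every probe above the filter level in GSC colonies, except the gene-level probe of Col4a5.

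The fibril-coating chains that were higher in GSC colonies than in sorted cells were intermediate in PGC colonies. Col12a1 had 10.04 and 10.34 in PGC colonies, lower than in GSC colonies (-0.89 ± 0.13, adjusted p = 0.0075). Col14a1 had 12.58 and 12.70 in PGC colonies (-0.70 ± 0.11, adjusted p = 0.0084), and Col16a1 11.95 and 12.06 (-0.48 ± 0.12, adjusted p = 0.048). In PGC colonies Col13a1 lay under the filter level at 7.45 and 7.80, at least 2.75-fold lower than in GSC colonies. Col3a1, with 12.44 and 12.86 in PGC colonies, was lower (-0.68 ± 0.16, adjusted p = 0.038), and so was Col7a1, at 8.37 and 8.13 in PGC colonies, against 8.78 and 9.23 in GSC colonies, with -0.75 ± 0.18 (adjusted p = 0.04). The calls of Col3a1, Col7a1 and Col16a1 were lost under 6, 8 and 11 of the 17 alternative settings.

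Several chains that were far higher in both kinds of colony than in sorted cells did not pass the test between PGC and GSC colonies. Col1a2 had 14.52 and 14.75 in PGC colonies, within the range of the GSC colony arrays (-0.28 ± 0.28). Col5a1 had 13.38 and 12.90 (-0.12 ± 0.18), Col5a2 12.99 and 12.94 (-0.04 ± 0.12), and Col15a1 13.17 and 13.57 (-0.06 ± 0.15) in PGC colonies. The collagen VI chains Col6a1, Col6a2 and Col6a3 differed by 0.35 ± 0.19, 0.25 ± 0.14 and 0.17 ± 0.11, all with an adjusted p of 0.27 or above. Col11a2, Col20a1, Col6a4, Col6a6, Col8a2, Col17a1, Col23a1 and Col25a1 did not pass either.

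**Figure D4:**
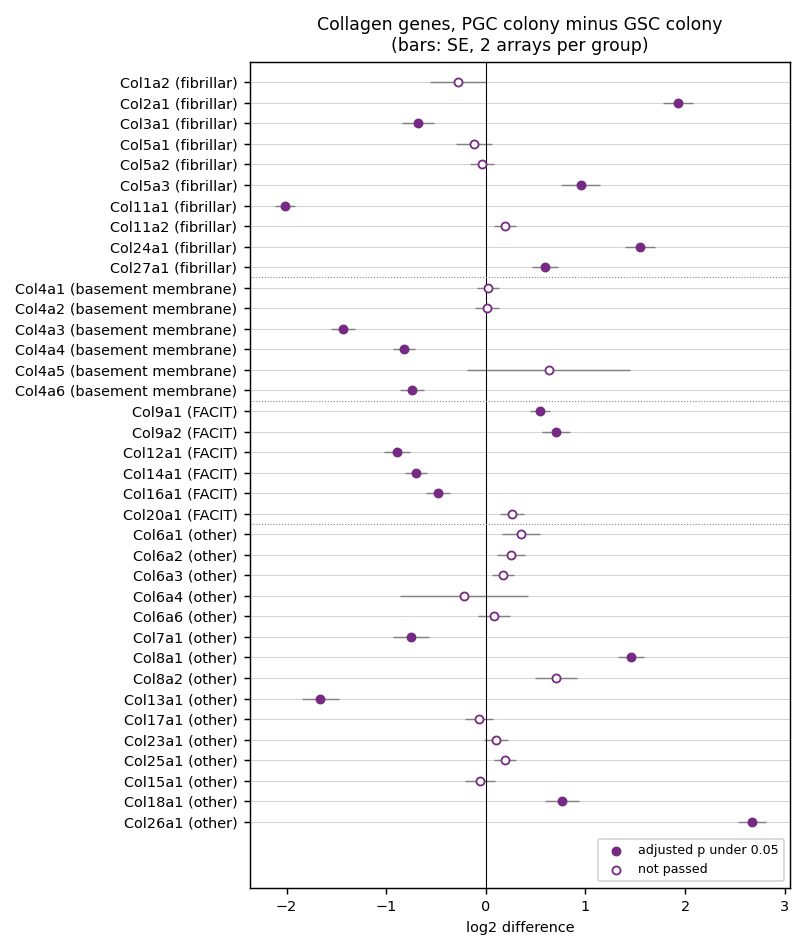
Log2 difference of PGC colony minus GSC colony arrays (x axis) for the 37 tested collagen genes (y axis, by class), with bars for the SE and filled points for an adjusted p under 0.05. Col26a1 (2.67) and Col2a1 (1.93) lie farthest right and Col11a1 (-2.02) farthest left, while Col4a1 and Col4a2 lie at 0.02 and 0.01.

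PGC colonies against sorted cells gave 25 collagen genes higher, 2 lower and 10 that did not pass, or 67.6% higher and 5.41% lower, beside 22.8% and 23.2% of all genes tested. Without normalization between arrays the median of all genes was 0.423 higher in PGC colonies, with 7574 of all genes called higher and 1838 lower, against 3517 and 3594 with it. This comparison uses the same sorted arrays as that of GSC colonies, so the 2 counts are not independent. All 10 tested fibrillar chains were higher, as were 4 of 6 basement membrane, 4 of 6 FACIT and 7 of 15 other chains. Col27a1 passed the filter only through its PGC colony arrays (7.85 and 7.91), so its direction here was set by the filter. The fibrillar chain left out, Col1a1, read 7.49 and 7.45 in PGC colonies, against 7.68 and 7.80 in sorted cells, all under the filter level. The largest difference was again that of Col6a3, at 16.11 and 16.17 in PGC colonies, against 10.05 and 10.22 in sorted cells (6.00 ± 0.11, 64.0-fold, adjusted p = 3.8e-06). Col1a2 differed by 4.13 ± 0.28, Col3a1 by 3.47 ± 0.16, Col5a1 by 4.64 ± 0.18 and Col5a2 by 3.40 ± 0.12.

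Col26a1 had 12.18 and 12.43 in PGC colonies, against 7.82 and 7.85 in sorted cells (4.47 ± 0.14, 22.1-fold, adjusted p = 5.4e-06), and Col8a1 was at least 17.4-fold higher. Col6a1 was higher by 3.19 ± 0.19 and Col6a2 by 3.74 ± 0.14. Col4a1 and Col4a2 were higher by 1.37 ± 0.11 and 1.18 ± 0.12, and Col4a6 by 2.15 ± 0.12. The gene-level probe of Col4a5 gave 2.53 ± 0.82 (adjusted p = 0.045) and the second probe 2.17 ± 0.12, and the first of these calls was lost under 6 of the 17 alternative settings. The FACIT chains Col16a1, Col12a1, Col14a1 and Col9a1 were higher by 2.42 ± 0.12, 2.24 ± 0.13, 1.96 ± 0.11 and 0.65 ± 0.10. Transmembrane Col23a1 was called at a small difference (0.38 ± 0.12, adjusted p = 0.039). Against sorted cells, Col4a3 was lower in PGC colonies by at least 1.28-fold (adjusted p = 0.0039), and beside Col9a2 it was the other collagen called lower. Without normalization between arrays that call on Col4a3 was lost. Col2a1 (2.00 ± 0.15) and Col27a1 (at least 1.04-fold, a bound near no change) were called higher here but not in GSC colonies against sorted cells. Their difference between the 2 kinds of colony was itself called, for Col27a1 only with the bound of at least 1.04-fold.

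Collagens need enzymes and chaperones to fold, mature and bind cells, and 54 genes of 6 such roles were on the array, with 47 tested. Of these, 29 were higher in GSC colonies than in sorted cells, 4 were lower and 14 did not pass (61.7% higher and 8.51% lower, beside 22.5% and 24.5% of all genes tested). Between PGC and GSC colonies 4 were higher (8.51%, beside 7.08% of all genes) and 12 lower (25.5%, beside 7.98%), so only the share of lower genes lay well above that of all genes. Between PGC colonies and sorted cells 25 were higher (53.2%, beside 22.8%) and 5 lower (10.6%, beside 23.2%). The median difference in GSC colonies against sorted cells was 1.07, or 0.95 with levels under the filter level raised to it.

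Of the 15 prolyl and lysyl modification genes, which hydroxylate and glycosylate the nascent chains, 10 were higher in GSC colonies than in sorted cells (66.7%, beside 22.5% of all genes) and 0 were lower. P4ha2, a catalytic subunit of prolyl 4-hydroxylase, had 11.25 and 11.27 in GSC colonies and lay under the filter level in sorted cells, so it was at least 10.9-fold higher (adjusted p = 2.4e-06). P3h3, a prolyl 3-hydroxylase, was higher by 2.57 ± 0.11 (adjusted p = 1.1e-05). P4ha2 was lower in PGC than in GSC colonies, at 9.86 and 9.77 in PGC colonies (-1.45 ± 0.12), and so was P4ha3 (-1.31 ± 0.12), while P3h2 was higher (0.87 ± 0.12).

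Among chaperone and export genes, Serpinh1, the collagen chaperone Hsp47, had 16.47 and 16.37 in GSC colonies, against 14.83 and 15.04 in sorted cells (1.49 ± 0.13, adjusted p = 0.00017). Creb3l1, a membrane-bound transcription factor that induces collagen genes, was higher by 1.42 ± 0.14, and Fkbp14, a peptidyl-prolyl isomerase, was lower (-1.33 ± 0.10, adjusted p = 0.00012). Hspa5 read 16.20 and 12.77 on the 2 PGC colony arrays, too far apart for a call. Bmp1, the protease that removes the C-propeptide of fibrillar chains, was higher in GSC colonies by 1.86 ± 0.12 and Adamts14, an N-propeptidase, by 1.19 ± 0.14.

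Of the 5 crosslinking enzymes tested, Lox and Tgm2 were lower in PGC than in GSC colonies and the other 3 did not pass. Lox, lysyl oxidase, had 10.33 and 10.06 in PGC colonies, 14.26 and 14.08 in GSC colonies, and 8.21 and 8.19 in sorted cells. Its difference was 5.97 ± 0.14 for GSC colonies against sorted cells (adjusted p = 2.2e-06) and -3.98 ± 0.14 for PGC against GSC colonies (adjusted p = 2.9e-05). Tgm2, a transglutaminase, had 11.63 and 11.71 in PGC colonies, 14.94 and 15.01 in GSC colonies, and 12.30 and 12.45 in sorted cells, so that PGC colonies were lower than GSC colonies (-3.30 ± 0.11) and than sorted cells (-0.70 ± 0.11). Loxl2 was higher in both kinds of colony than in sorted cells, by 1.80 ± 0.28 in GSC colonies and 1.75 ± 0.28 in PGC colonies, and did not pass between them.

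Of 9 tested genes of receptors and uptake, 5 were higher in GSC colonies than in sorted cells (55.6%, beside 22.5% of all genes). The 2 lower genes (22.2%) were near the share of all genes, 24.5%. Ddr2, a kinase receptor for fibrillar collagen found on mesenchymal cells, had 13.62 and 13.98 in PGC colonies, 13.37 and 13.64 in GSC colonies, and 8.58 and 8.53 in sorted cells, a difference of 4.95 ± 0.16 for GSC colonies. Ddr1, its epithelial relative, was lower in GSC colonies (-0.82 ± 0.13) and in PGC colonies (-0.88 ± 0.13) than in sorted cells. Mrc2, which takes up collagen fragments, was higher by 4.38 ± 0.12 in GSC colonies. The integrin subunits Itga1 (at least 1.88-fold), Itga10 (at least 1.55-fold) and Itgb1 (1.17 ± 0.11) were also higher in GSC colonies. The collagen integrin Itga11 went the other way and had 11.78 and 11.98 in PGC colonies, 10.70 and 10.74 in GSC colonies, and 11.79 and 11.72 in sorted cells, and was thus lower in GSC colonies than in either of the other groups (-1.04 ± 0.12 against sorted cells, and 1.16 ± 0.12 for PGC against GSC colonies).

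Among the enzymes that cleave collagen, Ctsk, cathepsin K, had 10.85 and 11.01 in PGC colonies, 14.26 and 14.12 in GSC colonies, and 8.69 and 8.34 in sorted cells (5.68 ± 0.15 for GSC colonies against sorted cells, -3.26 ± 0.15 for PGC against GSC colonies). Mmp14, a membrane-bound collagenase, was higher by 2.98 ± 0.14 in GSC colonies and by 3.19 ± 0.14 in PGC colonies than in sorted cells. Mmp9, a gelatinase that also cuts collagen IV, had 11.77 and 11.48 in PGC colonies, 8.58 and 8.46 in GSC colonies, and 9.22 and 9.26 in sorted cells. It was thus higher in PGC than in GSC colonies by 3.11 ± 0.13 (adjusted p = 7.3e-05). The plot of these genes by role sets the differences side by side.

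**Figure D5:**
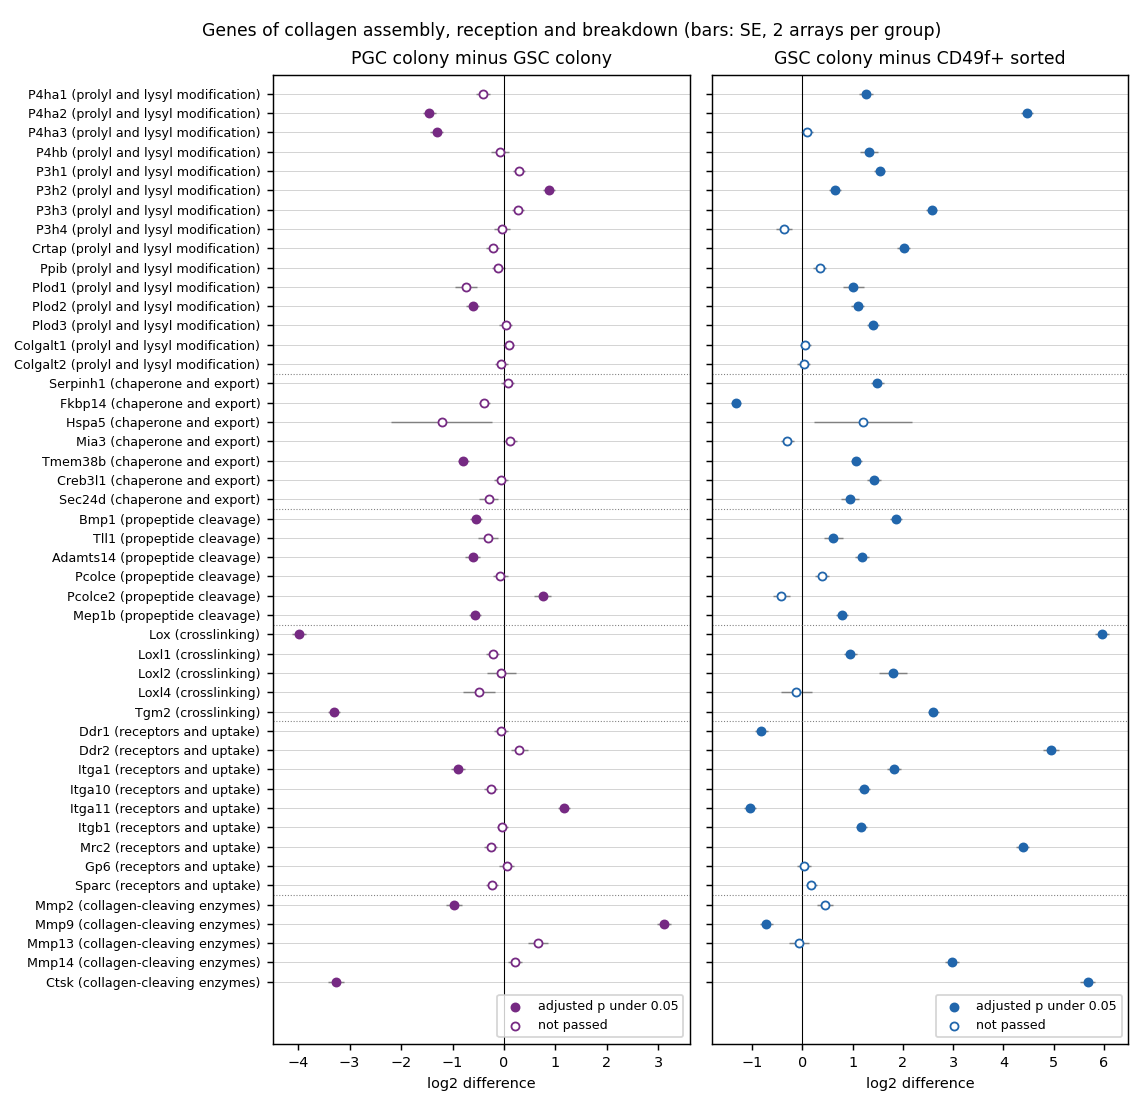
Log2 difference (x axis) of PGC colony minus GSC colony arrays (left panel) and of GSC colony minus CD49f+ sorted arrays (right panel) for the 47 tested collagen-processing and collagen-binding genes (y axis, by role), with bars for the SE and filled points for an adjusted p under 0.05. Lox and Ctsk lie farthest right against sorted cells, at 5.97 and 5.68, and far left between colonies, at -3.98 and -3.26, while Mmp9 is at 3.11 in the left panel.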

How the data were processed

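RNA of 6 samples was hybridised to 1 single-colour array each; per the labels' protocols, the input was 1 µg of total RNA. The deposited table holds linear probe intensity, and values below 0 occur on 4 arrays, as after background subtraction. The sources used here give no background method, scanner, software, scaling or genome build. Probes were named through the platform's probe table (21876 with 1 symbol, 0 with several, 4547 with none), and the 44 collagen Entrez identifiers were all found in RefSeq's table.

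The deposited intensity was corrected with normexp (offset 50), put on the log2 scale and quantile normalized in limma 3.58.1 under R 4.3.3. A gene was represented by its probe with the highest mean and tested when 2 of 6 arrays reached the 30th percentile of the array (level 7.82). All arrays entered 1 fit (lmFit and eBayes, 3 residual degrees of freedom, no block), with Benjamini-Hochberg adjustment over 15459 genes. The script was tested on simulated data. Where both arrays of a group lay under 7.82, a difference is given as a lower bound against that level. No detection calls were used, so only this level bears on intensity over background, and having 2 arrays a group limits the precision.

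Full values are given, in each class and comparison, for up to 3 rises and 3 falls past the threshold and for chains of the main heterotrimers, and for up to 2 rises and 2 falls per role among partner genes. The members, lists and tests were chosen with earlier results of these data known. Col1a1, Col9a3, Col19a1, Col22a1, Col6a5, Col28a1 and Col10a1 were left out of the tests by the filter. Alternatives covered scaling, background, filter, probe choice, the fit, a replicate block and leaving out each array. Same-numbered arrays deviated from their group means with a correlation of -0.342 (GSC colony with sorted), -0.179 (GSC with PGC colony) and 0.326 (sorted with PGC colony), so the numbers were not taken as pairing.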

Additional observations from a re-analysis of the deposited data

How the results depend on the processing

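Of the collagen calls, 22 of 24 higher and 1 of 2 lower in GSC colonies against sorted cells, 4 of 9 higher and 7 of 10 lower in PGC against GSC colonies, and 23 of 25 higher and 1 of 2 lower in PGC colonies against sorted cells held in each of 17 alternative settings that tested the gene. Counts of 1 or 2 calls, class medians and calls near the threshold moved most. Class medians below are log2 differences, and for each change of setting the cause was not tested, except that a filter changes which genes are counted.

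Without normalization between arrays, 1 collagen and 2 partner genes were lower in GSC colonies than in sorted cells, the class medians were 2.94 (fibrillar), 2.06 (basement membrane), 1.85 (FACIT) and 1.53 (other), and Col18a1 turned to 0.12 (adjusted p = 0.57). For PGC colonies against sorted cells that setting gave 38 partner genes higher and 2 lower, 1 collagen lower, and medians of 2.82 (fibrillar), 1.86 (basement membrane) and 1.73 (FACIT). Median centring left 1 collagen lower in GSC colonies and a fibrillar median of 2.52. With values below 16 set to 16, the medians for GSC colonies were 2.46 (fibrillar) and 1.40 (other), and that for PGC colonies against sorted cells was 2.60 (fibrillar). With a normexp offset of 16 the fibrillar median for GSC colonies was 2.44.

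With no filter, 4 collagens were lower in GSC colonies than in sorted cells, and the medians were 1.36 (fibrillar), 0.10 (FACIT) and 0.35 (other). The FACIT median was then 0.26 for PGC against GSC colonies and 0.65 for PGC colonies against sorted cells. A filter at the 50th percentile gave 3.44 (fibrillar), 2.78 (FACIT) and 2.84 (other) for GSC colonies against sorted cells and -0.59 (FACIT) for PGC against GSC colonies. For PGC colonies against sorted cells it gave 1 collagen lower and medians of 2.10 (FACIT) and 3.19 (other).

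Leaving out 1 array at a time gave 1 to 3 collagens lower in GSC colonies than in sorted cells and a median of 0.94 to 1.38 for the other chains. It gave 5 to 9 collagens higher in PGC than in GSC colonies, with 5 without PGC colony replicate 2, and a Col4a5 difference of -0.78 without GSC colony replicate 1 and 2.05 without replicate 2. With the replicate number as a block, collagens higher and lower numbered 23 and 2 (GSC colonies against sorted cells), 6 and 7 (PGC against GSC colonies) and 24 and 2 (PGC colonies against sorted cells). With crossed numbers for the GSC colony arrays, chosen after seeing the data, that replicate block gave 24 and 3, 10 and 10, and 28 and 2.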
